A study of Mus musculus with 5 samples.

Results

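Ms4a4b and Ms4a4c, a pair of neighbouring membrane protein genes of the MS4A family, are 2 of the 2926 mouse genes in the deposited expression table, and both were taken by their symbols. Ms4a4b had been singled out as a leading gene of cells with T cell markers in an earlier clustering of the same cells, so its relation to T cell markers is given below as a description with no test. The mice were C57BL/6 of wildtype genotype, and all had a stroke by photothrombosis, in which light shone on the cortex sets off a circulating dye and clots the vessels there. Brains were taken 14 days later. Trained mice (3 samples of 66, 124 and 168 cells) had access to running wheels from day 2 after the stroke. Untrained mice (2 samples of 144 and 190 cells) had the same stroke and no wheels. In all samples CD3+ T cells were sorted one by one from the ipsilateral hemisphere into 384-well plates and read by SORT-seq, a method that sequences the 3' ends of transcripts. The labels do not say how many mice stand behind a sample, so the p-values below measure only the spread between these samples, which may be technical.

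MS4A proteins cross the membrane several times and are relatives of CD20, the B cell antigen encoded by Ms4a1. Ms4a4b, also called Chandra, is known from mouse T cells, where it associates with the costimulatory receptor GITR (Tnfrsf18) and restrains proliferation when it is overexpressed. Ms4a4c is its less studied close relative. Type I interferons switch on a large set of target genes in T cells, and interferon gamma acts most on GTPases of the GBP and IRG families and on antigen presentation genes.

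The genes lie next to each other on chromosome 19, with 0 protein-coding genes between them in the RefSeq annotation, in a cluster of 21 genes named Ms4a. Their neighbours are Ms4a4a on the side of Ms4a4c and Ms4a6c on the side of Ms4a4b. The 4 members of the family that the table holds (Ms4a4c, Ms4a4b, Ms4a6c and Ms4a6b) stand in a row in that cluster. RefSeq promoter windows (GRCm38.p6, 250 bases before and 50 after the start site) were found for both genes, at chr19:11443308-11443607 for Ms4a4b and chr19:11407411-11407710 for Ms4a4c, both on the plus strand. Aligned end to end, 228 of 282 paired bases were identical (80.9%). Against 17 other windows of the family the share of identical bases ran from 52.6% to 62.7%. The likeness sat next to the start site. The stretch from the first shared run up to the start site is shown because it is where the promoters of the pair match. Capitals mark runs of at least 8 bases that are the same in both, 6 runs of 92 bases in total, and 109 of 120 paired bases were identical here (90.8%).
Ms4a4b, chr19:11443434-11443557, plus strand: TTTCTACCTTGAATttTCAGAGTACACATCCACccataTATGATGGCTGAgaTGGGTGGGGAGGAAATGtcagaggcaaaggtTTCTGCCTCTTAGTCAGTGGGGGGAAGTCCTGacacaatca
Ms4a4c, chr19:11407540-11407660, plus strand: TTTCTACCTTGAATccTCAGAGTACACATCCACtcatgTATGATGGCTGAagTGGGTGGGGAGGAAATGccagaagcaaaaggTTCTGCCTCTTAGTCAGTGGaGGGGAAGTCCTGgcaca

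Letters of 6 motifs were searched on both strands of the full windows. These were the interferon-stimulated response element ISRE (GAAA, any 2 bases, GAAA), the interferon gamma-activated site GAS (TTCNNNGAA), the IRF-ETS composite (GGAA, any 2 bases, GAAA), an ETS site (AGGAAGT), a T-box site (AGGTGTGA) and a RUNX site (TGTGGTT). Windows of Ms4a4b and Ms4a4c held 0 matches to each. The ISRE letters occurred in 3.99% of the 27025 genes with a window and in 19 of the 47 genes of the interferon-stimulated list with one (40.4%). Matches of different motifs may overlap and were counted separately. The GAS letters occurred in 9.55% of all genes and in 19.1% of that list. For comparison, Ifit1, an interferon-stimulated gene that tracked Ms4a4b (below), had 2 ISRE matches before its start site, the first beginning 104 bases upstream, in capitals here.
Ifit1, chr19:34640760-34640819, plus strand: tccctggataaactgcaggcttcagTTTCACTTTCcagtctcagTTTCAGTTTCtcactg
Ifi47, another interferon gene that tracked Ms4a4b (below), had no ISRE match in its window. A match is a stretch of letters, not a bound site, and the windows reach no further than 250 bases upstream.

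Reads of the pair could in part be shared. The longest annotated transcript of Ms4a4b (Ms4a4b-201, 4750 bases) and that of Ms4a4c (Ms4a4c-201, 1723 bases) have an identical run of 127 bases in GENCODE M21. In their last 500 bases, where a 3' method reads, the longest shared run was 9 bases. Over all 21 pairs of annotated transcripts the longest run in the last 500 bases was 120, in the pair Ms4a4b-206 and Ms4a4c-202. How reads with more than one match were counted is not given in the sources used here.

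Every value below is a score from the deposited table, with no counts behind it. Scores ran from -2.12 to 3.74, with 72.7% of values below 0, so a score of 0 is not an absence of transcripts. How they were scaled is not given, so the level of one gene cannot be set against that of another. Depth per cell is unknown. Untrained sample 2 stood apart. In that sample 1335 rows had their highest value at one shared limit of 2.52, and 1632 of 2967 rows had a mean of 0 over its cells (within 1e-06), against 0 rows in each other sample. Neither Ms4a4b nor Ms4a4c is among the rows with a mean of 0, but both are among the rows whose highest value is that limit. A mean over all cells of that sample is partly set by such scaling. Its scores were also more spread, with a median SD over genes of 0.728, against 0.370 to 0.515 in the other samples. Means of classes of cells and differences within that sample are therefore on a wider scale than elsewhere. Cells with a mean score above 1 over 6 myeloid markers (Cst3, Ctss, Ctsd, C1qb, Tyrobp and Apoe) numbered 3, 5 and 3 in the trained samples, against 0 in untrained sample 1 and 41 of 190 in untrained sample 2. Plates share well numbers, 221 of the 331 numbers used, which are plate positions and not shared cells, and 0 pairs of cells had identical values.

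Over all sorted cells Ms4a4b had mean scores of 0.0750, 0.141 and 0.0739 in the trained samples, against 0.0808 and 0.0137 in the untrained samples. Ms4a4c had means of -0.0330, -0.00243 and 0.00439 in the trained samples, against 0.0224 and -0.0381 in the untrained samples. For both genes the groups overlapped, and the untrained samples held both ends of the range for Ms4a4c. Both genes had a tail of high scores in each sample. The median cell lay below 0 for Ms4a4c in all 5 samples, and for Ms4a4b in all but trained sample 2 (0.0476) and untrained sample 1 (0.0105). For Ms4a4b the share of cells with a score above 1 was 13.6%, 9.68% and 10.7% in the trained samples, against 6.25% and 14.7% in the untrained samples. For Ms4a4c it was 10.6%, 12.1% and 5.95% in the trained samples, against 5.56% and 12.1% in the untrained samples. In untrained sample 2 the tail was cut off: 13 of its 28 cells above 1 for Ms4a4b and 11 of its 23 for Ms4a4c sat exactly at the limit of that sample.

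**Figure D1:**
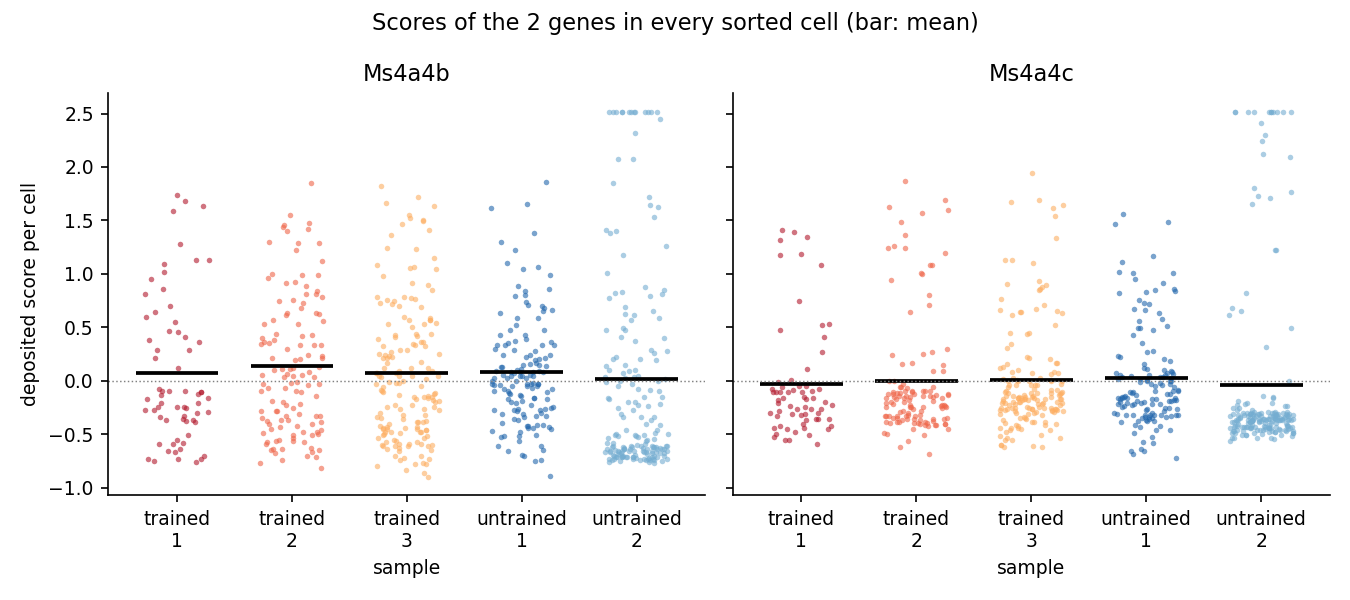
Deposited score (y axis, no unit) of Ms4a4b and Ms4a4c in each of the 692 cells by sample, with the mean as a bar. Means lie near 0 in all samples, each sample has a tail above 1, and in untrained 2 the top cells pile up at 2.52.

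Both genes had their high scores in cells with T cell markers, Ms4a4b by a wide margin. The T cell marker score is the mean of Cd3d, Cd3e, Cd3g, Cd2, Cd247, Lck and Thy1, which encode chains of the CD3 complex, an adhesion receptor, a proximal kinase of the T cell receptor and a surface glycoprotein. It lay above 0 in 37, 70 and 90 cells of the trained samples, against 78 and 70 cells of the untrained samples. The other 347 of the 692 cells lay at or below 0. A score of 0 is not an absence of transcripts, so this split does not show how pure the CD3 sort was. The median of Cd3e was 0.329 in the 345 cells above 0, against -0.443 in cells at or below 0, and that of Cd3d was 0.240, against -0.434. Both genes are part of the score, so these medians follow from the split.

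In cells above 0 Ms4a4b averaged 0.501 ± 0.191 and in cells at or below 0 it averaged -0.343 ± 0.0973 (SD over samples, n = 5 each). The difference was 0.817, 0.895 and 0.746 in the trained samples, against 0.498 and 1.26 in the untrained samples. Its mean over samples, 0.844, was the 37th largest of 2919 genes outside the markers. Ms4a4c averaged 0.176 ± 0.0889 above 0 and -0.194 ± 0.0473 at or below 0 (SD over samples, n = 5 each). Its difference was 0.170, 0.399 and 0.429 in the trained samples, against 0.333 and 0.518 in the untrained samples, and its mean of 0.370 took place 445. That both genes had a difference above 0 in all 5 samples says little by itself, because 79.1% of all genes did. Cells above 0 also had a larger mean score over all genes, 0.0653 to 0.123 per sample against -0.148 to -0.105 in cells at or below 0.

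The coreceptors divide T cells into CD8 cells, which kill, and CD4 cells, which help and regulate. A cell was CD8-gated when the average of Cd8a and Cd8b1 exceeded 0 while Cd4 did not (159 cells), and CD4-gated when Cd4 exceeded 0 while that average did not (146 cells). Another 57 cells lay above 0 for both and 330 for neither. Of the CD8-gated cells 50 and of the CD4-gated cells 34 lay within 0.25 of the cut, so a gate is a range of scores and not a detected transcript.

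Ms4a4b had mean scores in CD8-gated cells of 0.414, 0.355 and 0.354 in the trained and 0.154 and 0.480 in the untrained samples, against 0.127, 0.264, 0.0258, 0.0969 and 0.542 in CD4-gated cells of the same samples in the same order. The CD8-gated mean was the larger in 4 of 5 samples, all but untrained sample 2. The difference of the means was 0.140 ± 0.0675 (SE, 95% interval -0.00333 to 0.284), with an adjusted p of 0.388 in limma. It was 0.0744 without cells above 1 for the myeloid markers and 0.0932 without trained sample 3. Ms4a4c had means in CD8-gated cells of -0.00940, 0.0234, 0.164, 0.126 and 0.557, against 0.0646, 0.0756, -0.0100, 0.0315 and -0.00790 in CD4-gated cells. Its difference of 0.141 ± 0.0815 (SE, 95% interval -0.0322 to 0.315, adjusted p = 0.483 in limma) came largely from untrained sample 2 and was 0.0356 without it. Neither difference passed the threshold.

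In that comparison 5 of 2923 genes passed the threshold (0.171%), among them the cytotoxic effector genes Ccl5, Nkg7 and Ctsw. Ccl5, a chemokine of effector CD8 cells, had a CD8-gated minus CD4-gated difference of 0.659 ± 0.104 (SE, adjusted p = 0.0131 in limma). The count of 5 became 0 without trained sample 1, 2 without trained sample 2 and 2 without trained sample 3. The mean myeloid marker score in trained sample 1 was -0.277 in CD8-gated cells, against 0.197 in CD4-gated cells, and without cells above 1 for the myeloid markers 0 genes passed. The part of such cells in the gate comparison was not tested beyond that.

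Cells above both gates had the largest Ms4a4b scores, 0.537, 1.02 and 0.409 in the trained samples (8, 2 and 20 cells), against 0.427 and 1.13 in the untrained samples (21 and 6 cells). Cells above neither gate had -0.337, -0.134 and -0.135 in the trained samples, against -0.120 and -0.280 in the untrained samples. The 5 differences were all above 0, as they were for 34.7% of genes, and their mean of 0.906 was the 13th largest of 2923. For Ms4a4c the same difference averaged 0.487 and took place 207. Within cells above 0 for the T cell marker score the order of the class means was the same for Ms4a4b, at 0.772 ± 0.309 above both gates, 0.639 ± 0.214 in CD8-gated cells, 0.468 ± 0.350 in CD4-gated cells and 0.267 ± 0.211 above neither (SD over samples, n = 5 each). Neighbours in that order differed by less than their SDs.

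**Figure D2:**
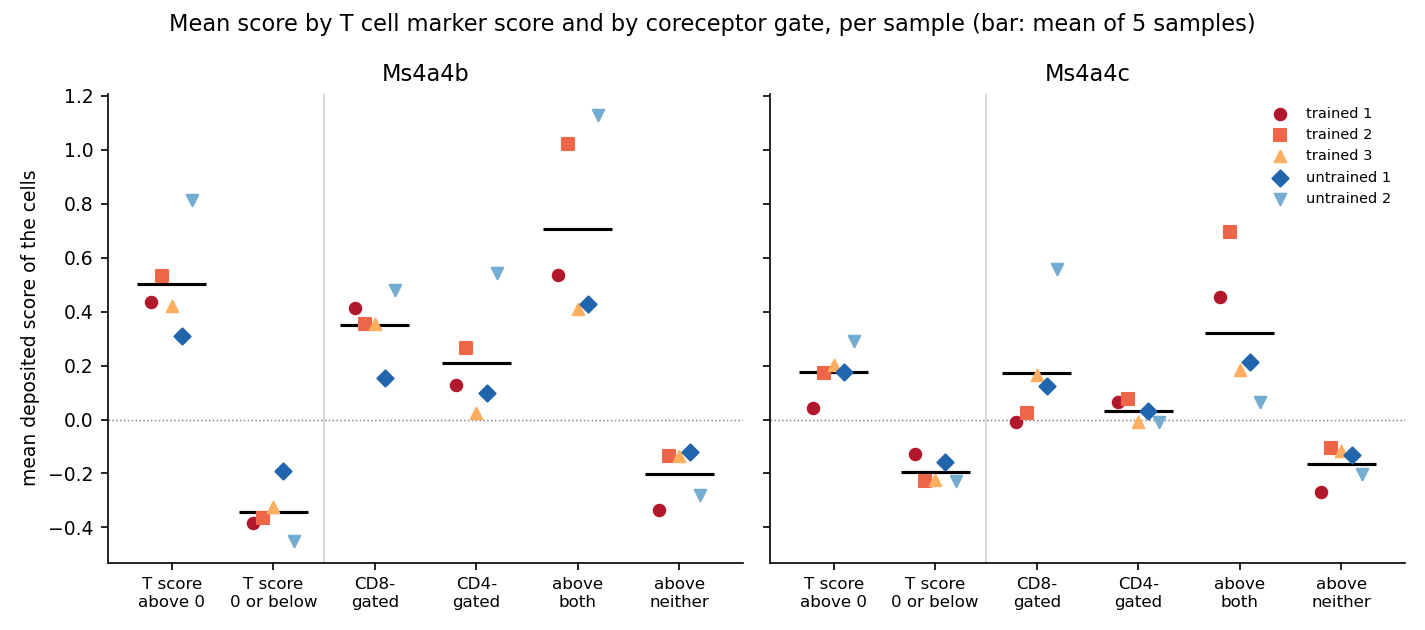
Mean score per sample (y axis, no unit) of Ms4a4b and Ms4a4c in cells above 0 and at or below 0 for the T cell marker score, and by coreceptor gate, with the mean of 5 samples as a bar. Ms4a4b averages 0.501 above 0 for the T cell marker score and -0.343 at or below it, while CD8-gated and CD4-gated points overlap for both genes.

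Ms4a4b had the highest correlation with the interferon-stimulated genes of any gene outside their list, in the scores as deposited. Of an interferon-stimulated list of 81 genes the table held 59, and their mean is the interferon score of a cell. Within samples Pearson's r across cells between Ms4a4b and this score was 0.598, 0.591 and 0.595 in the trained samples, against 0.635 and 0.585 in the untrained samples. The mean of 0.601 was the highest of the 2867 genes outside the list, whose median r was 0.170 and whose 95th percentile was 0.342. For Ms4a4c r was 0.540, 0.246 and 0.345 in the trained samples, against 0.400 and 0.349 in the untrained samples. Its mean of 0.376 took place 82. A list of 32 interferon gamma GTPase and antigen presentation genes, 24 of them in the table, gave a mean r of 0.678 for Ms4a4b (place 2 of 2902) and 0.436 for Ms4a4c (place 186). Cells of a sample share a plate and a library, so these correlations describe the cells and carry no p.

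The cells of each sample were ranked by interferon score and cut into 4 groups of nearly equal size, numbered from the lowest. Ms4a4b averaged -0.347 ± 0.103 in group 1, -0.158 ± 0.0854 in group 2, 0.177 ± 0.136 in group 3 and 0.629 ± 0.0939 in group 4 (SD over samples, n = 5). All 5 samples kept that order for Ms4a4b. Ms4a4c averaged -0.225 ± 0.0513, -0.0943 ± 0.0663, 0.0305 ± 0.133 and 0.248 ± 0.0854 (SD over samples, n = 5), with trained samples 1 and 2 out of order between groups 2 and 3. In cells above 0 for the T cell marker score, those above the median interferon score exceeded the others for Ms4a4b by 0.325, 0.302 and 0.390 in the trained samples, against 0.369 and 1.06 in the untrained samples. That mean difference of 0.488 was the second largest of 2860 genes, and 16.5% of genes were above 0 in all 5 samples. Without untrained sample 2 the mean was 0.346. For Ms4a4c the difference was 0.120, -0.0394 and 0.0987 in the trained samples, against 0.243 and 0.759 in the untrained samples. Its mean was 0.236, place 87, and 0.105 without untrained sample 2.

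**Figure D3:**
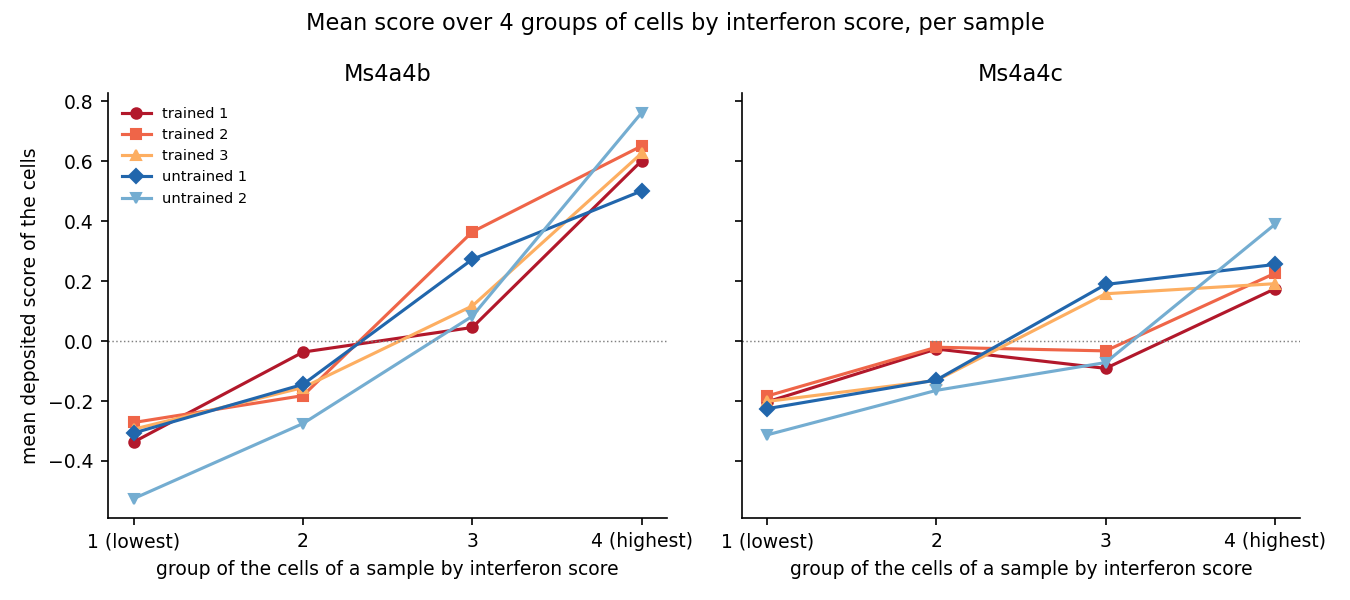
Mean score per sample (y axis, no unit) of Ms4a4b and Ms4a4c over 4 groups of nearly equal size of the cells of that sample ranked by interferon score (x axis, lowest to highest). For Ms4a4b the highest group lies between 0.501 and 0.762 and the lowest between -0.525 and -0.272, and for Ms4a4c the span is smaller.

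Correlations in this table also carry the mean score of a cell over all genes. Ms4a4b had a mean within-sample r of 0.635 with that mean and Ms4a4c of 0.352, where the median gene had 0.313. The 10 genes most like Ms4a4b as deposited were Rpl13a, Rpl17, Rpl19, Shisa5, Tmsb10, Rpsa, Tpt1, Actb, Rpl12 and Rpl18, with mean r of 0.544 to 0.599. Of these 6 encode ribosomal proteins, and over all 70 ribosomal protein genes, a list made after these values were seen, the median r was 0.462. Among the 5 least like it were Gm10785, A130077B15Rik, Kcnq1ot1 and A630089N07Rik, with mean r of -0.479 to -0.470. Nearest to Ms4a4c were Tmsb10, Ms4a4b, Rpl19, Rps27a, Pabpc1, Rpl17, Rplp1, Ptprcap, Rps24 and Rps14 (0.387 to 0.433), and among the lowest were Gm10785, Slfn9, Kcnq1ot1 and A130077B15Rik (-0.305 to -0.294).

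After each gene and each score had been regressed on the mean score of the cell, the list for Ms4a4b changed to interferon genes. Among the 10 nearest were Ifi47, Ms4a4c, Ifi203, Ifit1, Parp9, Cmpk2, Shisa5, Herc6 and Clec2d, with mean r of 0.240 to 0.366. Ifi47, an interferon gamma GTPase of the IRG family, stood first, with a within-sample r of 0.244 to 0.506. Ifit1 (mean r 0.255) binds foreign RNA, and Clec2d (0.240) is a ligand of an NK cell receptor. The 5 lowest were Ctsb, Tyrobp, Ctsd, Rgs10 and Egr1 (-0.393 to -0.278), of which Ctsb and Ctsd encode lysosomal proteases and Tyrobp a myeloid signalling adaptor.

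For Ms4a4c the 10 nearest after regression were Ms4a4b, Tmsb10, Ptprcap, Rps27a, Rpl19, Pabpc1, Xcl1, Mndal, Rps14 and Rpl17 (0.210 to 0.272), a mixture with one interferon gene of the list, Mndal. Xcl1, a chemokine made by activated CD8 cells, had a mean r of 0.222. Lowest were Anxa5, Cbx6, Dazap2, Fth1 and Rbpj (-0.220 to -0.194).

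Of the 59 interferon-stimulated genes 58 had an r above 0 with Ms4a4b after regression, at a median of 0.144, and 53 with Ms4a4c, at a median of 0.0907. Over all genes 48.7% lay above 0 with Ms4a4b and 46.7% with Ms4a4c. Of the 70 ribosomal protein genes 54 lay above 0 with Ms4a4b, at a median of 0.0768, and 68 with Ms4a4c, at a median of 0.123. For Ms4a4c that median was larger than the one of the interferon-stimulated genes. The interferon score as a whole had a mean r of 0.371 with Ms4a4b (0.308 to 0.409, place 9) and 0.219 with Ms4a4c (0.0543 to 0.468, place 45). By rank correlation of the deposited scores the places were 12 for Ms4a4b and 1262 for Ms4a4c. As deposited, the 5 interferon genes closest to Ms4a4b were Shisa5 (0.564), Psmb8 (0.521), Ifi47 (0.508), H2-K1 (0.504) and B2m (0.491), and those closest to Ms4a4c were Psmb8 (0.368), Shisa5 (0.364), Mndal (0.350), B2m (0.328) and Psmb10 (0.327). Psmb8 and Psmb10 are subunits of the immunoproteasome, and H2-K1 and B2m form the class I molecule. Of the 10 genes nearest to Ms4a4b after regression, 8 had a promoter window and 4 of these held the ISRE letters that Ms4a4b lacks. Of the 10 nearest to Ms4a4c, 5 had a window and 1 held them.

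The T cell marker score gave a mean r with Ms4a4b of 0.621 (0.499 to 0.696) as deposited and 0.233 after regression, where it ranged from -0.0149 in untrained sample 1 to 0.451 in untrained sample 2. With Ms4a4c it was 0.323 as deposited and 0.0796 after regression. Of the single markers as deposited, Lck (0.489) was closest to Ms4a4b, before Thy1 (0.477), Cd3e (0.449), Cd3d (0.388), Cd2 (0.366), Cd3g (0.345) and Cd247 (0.228). The myeloid score had a mean r with Ms4a4b of -0.0290 as deposited (-0.330 to 0.166, above 0 in 3 of 5 samples), of 0.118 without the 52 cells above 1 for the myeloid markers, and of -0.340 after regression (-0.535 to -0.165). With Ms4a4c it was -0.000949 as deposited and -0.147 after regression (-0.240 to -0.0708). Leaving out those 52 cells gave an r of 0.614 between Ms4a4b and the interferon score, again the highest of the 2867 genes outside the list. Among T cell lists, 10 of 10 measured cytotoxic effector genes had an r above 0 with Ms4a4b after regression, at a median of 0.0662. Nkg7 (0.233), a granule protein of killer cells, led them. With Ms4a4c 9 of 10 did, at a median of 0.130, led by Xcl1. Naive and recirculation genes had 4 of 7 above 0 with Ms4a4b and 4 of 7 with Ms4a4c. Costimulation genes had 5 of 6 and 2 of 6. Over all genes the shares were 48.7% and 46.7%. Tnfrsf18, whose product partners Ms4a4b, had an r of 0.247 as deposited and -0.0442 after regression.

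**Figure D4:**
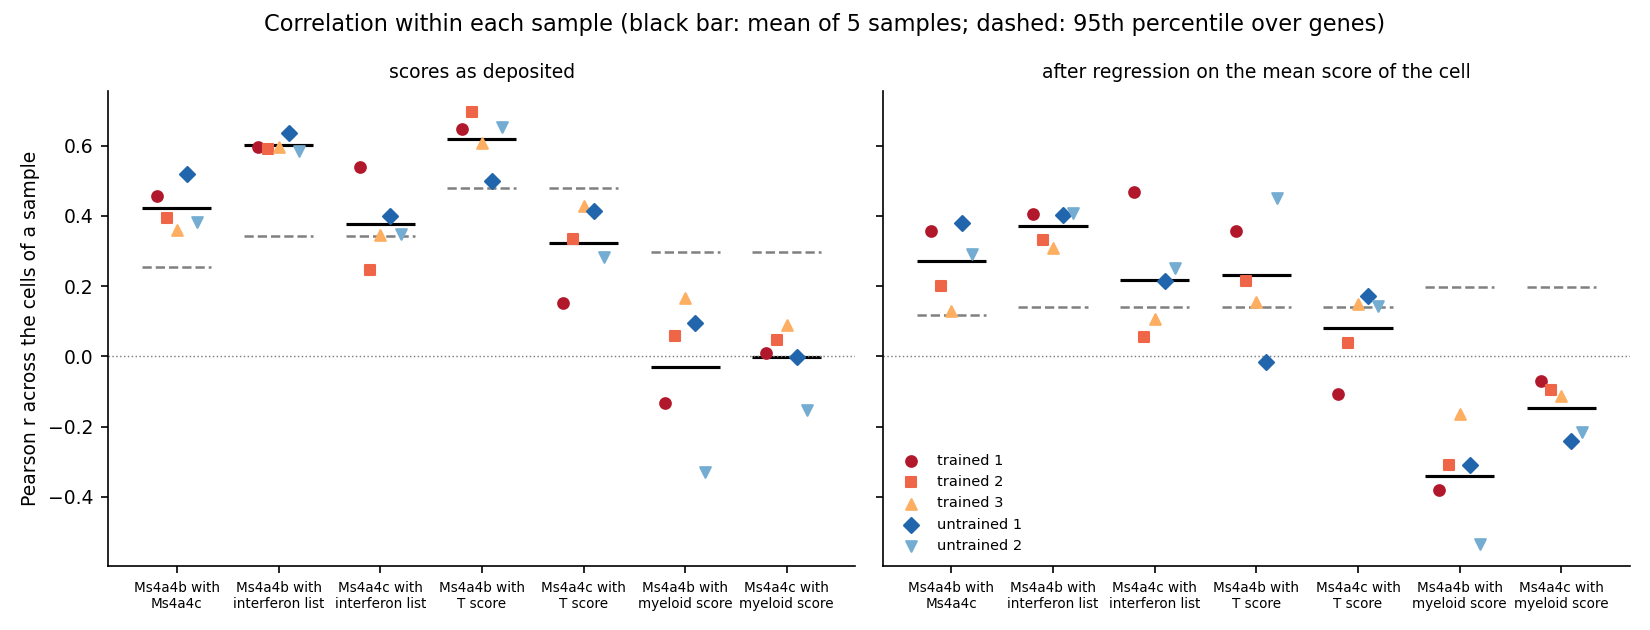
Pearson r across the cells of each sample (y axis) between the genes and the interferon, T cell marker and myeloid scores, as deposited (left) and after regression on the mean score of the cell (right). Black bars are means of 5 samples and dashed bars the 95th percentile over genes of that mean. The mean of Ms4a4b with the interferon list lies above its dashed bar on both sides, at 0.601 and 0.371.

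Ms4a4b and Ms4a4c tracked each other. Their r across cells was 0.457, 0.395 and 0.360 in the trained samples, against 0.520 and 0.384 in the untrained samples, with a mean of 0.423. Ms4a4b was the second nearest of 2925 genes to Ms4a4c, while Ms4a4c was 115th for Ms4a4b. After regression r was 0.272 and the places were 1 and 2. In cells above 0 for the T cell marker score r was 0.275. High scores coincided only in part: 76 cells had Ms4a4b above 1, 63 had Ms4a4c above 1 and 19 had both, which is 25% of the Ms4a4b-high and 30.2% of the Ms4a4c-high cells, while 9.10% of all cells were Ms4a4c-high and 11% Ms4a4b-high. These 19 cells came as 3, 4 and 0 from the trained samples, against 3 and 9 from the untrained samples.

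Of the 76 Ms4a4b-high cells 92.1% lay above 0 for the T cell marker score, against 49.9% of all cells, and 88.2% lay above the median interferon score of their sample. By gate 39.5% were CD8-gated, 23.7% CD4-gated, 17.1% above both and 19.7% above neither, against 23%, 21.1%, 8.24% and 47.7% of all cells. Of the Ms4a4c-high cells 82.5% lay above 0 for the T cell marker score and 76.2% above that median interferon score. Cells above 1 for the myeloid markers numbered 0 among the Ms4a4b-high and 1 among the Ms4a4c-high.

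The other measured genes of the family divided. Ms4a6b, known from T cells, had an r with Ms4a4b of 0.445, 0.557 and 0.419 in the trained samples, against 0.472 and 0.492 in the untrained samples, and Ms4a4b was its 5th nearest gene. Ms4a6b was the 52nd nearest to Ms4a4b as deposited, before Ms4a4c (115th), and 20th after regression, behind Ms4a4c (2nd). It took higher places than Ms4a4c for the T cell marker difference (0.618, place 117) and the r with the interferon score (0.465, place 20). Within cells above 0 for the T cell marker score its interferon difference of 0.385 took place 6. Its CD8-gated minus CD4-gated difference was -0.126 ± 0.0782 (SE, 95% interval -0.292 to 0.0405, adjusted p = 0.521 in limma). That is opposite in sign to the pair, without a call. By sample it was -0.522, 0.0519 and -0.0142 in the trained samples, against 0.0244 and -0.170 in the untrained samples. Ms4a6c, known from monocytes and macrophages, had an r with Ms4a4b of -0.363, -0.318 and -0.340 in the trained samples, against -0.327 and -0.198 in the untrained samples. After regression that relation was 0.0124, and of the 62 cells above 1 for Ms4a6c 12.9% lay above 0 for the T cell marker score and 6.45% above 1 for the myeloid markers. Most Ms4a6c-high cells were thus low for T cell markers and not high for the 6 myeloid markers either. As deposited, Ms4a6c had a mean r of -0.498 with the mean score of the cell over all genes (place 2865 of 2926). With the myeloid score its mean r was -0.243. What these cells are was not tested.

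Training was the comparison the samples were made for, and neither gene passed the threshold in any of the 4 sets of cells tested. Over all sorted cells Ms4a4b averaged 0.0965 ± 0.0382 in trained samples (SD, n = 3) and 0.0473 ± 0.0475 in untrained samples (SD, n = 2). The difference was 0.0493 ± 0.0291 (SE, 95% interval -0.0149 to 0.113, adjusted p = 0.708 in limma), and it was -0.0197 without the cells above 1 for the myeloid markers, 41 of 52 of which are in untrained sample 2. Ms4a4c averaged -0.0103 ± 0.0199 in trained samples and -0.00785 ± 0.0428 in untrained samples (SD, n = 3 and 2), a difference of -0.00250 ± 0.0256 (SE, 95% interval -0.0589 to 0.0539, adjusted p = 0.984 in limma). The mean over all cells of untrained sample 2 is partly set by the scaling described above, so these values say little about levels. Without that sample the Ms4a4b difference was 0.0157 and without untrained sample 1 it was 0.0828. The sign of the Ms4a4c difference turned without trained sample 1 (0.00882) or untrained sample 1 (0.0278). Limma called 0 of 2926 genes here (0%), with 226 at an unadjusted p under 0.05 (7.72%).

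In cells above 0 for the T cell marker score Ms4a4b had means of 0.434, 0.530 and 0.420 in the trained samples, against 0.309 and 0.812 in the untrained samples. The untrained samples lay on either side of all trained ones. The difference was -0.0990 ± 0.124 (SE, 95% interval -0.384 to 0.186, adjusted p = 0.999 in limma). It was -0.350 without untrained sample 1, with an adjusted p of 0.0155 and 140 genes called in that fit, and 0.152 without untrained sample 2, with an adjusted p of 0.997. In each of these fits the untrained group is 1 sample, taken to vary like the trained ones. The sign depended on which untrained sample was kept. Over all cells the SD of Ms4a4b was 0.973 in untrained sample 2, against 0.512 to 0.679 in the other samples. With scores divided by their SD within each sample, the Ms4a4b difference over all 5 samples was -0.00975. The cells above 0 had a mean T cell marker score of 0.331 to 0.380 in the trained samples, against 0.288 in untrained sample 1 and 0.666 in untrained sample 2. Their mean interferon score was 0.0294 to 0.0627 in the trained samples, against 0.0431 in untrained sample 1 and 0.136 in untrained sample 2. Ms4a4c had means of 0.0419, 0.171 and 0.203 in the trained samples, against 0.175 and 0.289 in the untrained samples, a difference of -0.0933 ± 0.0614 (SE, adjusted p = 0.999 in limma). It was -0.0448 without trained sample 1, -0.150 without untrained sample 1 and -0.0361 without untrained sample 2. Here 0 of 2919 genes were called (0%) and 51 had an unadjusted p under 0.05 (1.75%).

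Within gates the differences of the pair had opposite signs in the reported fits, without a call. With T cell markers required every one lay below 0. In CD8-gated cells it was then -0.107 for Ms4a4b and -0.326 for Ms4a4c, and in CD4-gated cells -0.267 and -0.0657. In CD8-gated cells Ms4a4b averaged 0.374 ± 0.0342 in trained and 0.317 ± 0.231 in untrained samples (SD, n = 3 and 2), and the difference of 0.0573 ± 0.0862 (SE, adjusted p = 0.868 in limma) was -0.106 without untrained sample 1. Ms4a4c averaged 0.0594 ± 0.0922 in trained and 0.341 ± 0.305 in untrained samples (SD, n = 3 and 2) in these cells. That difference of -0.282 ± 0.0959 had an unadjusted 95% interval of -0.479 to -0.0846 and an adjusted p of 0.509 in limma. Its size came from untrained sample 2 (0.557), since untrained sample 1 (0.126) lay among the trained samples, and it was -0.498 without untrained sample 1, -0.0664 without untrained sample 2 and -0.00898 with medians over cells. Of 2923 genes 0 were called (0%) and 263 had an unadjusted p under 0.05 (9%). Ms4a4c, with an unadjusted p of 0.00691 in limma, took place 39 of these 2923 genes by p.

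In CD4-gated cells Ms4a4b averaged 0.139 ± 0.119 in trained and 0.319 ± 0.315 in untrained samples, and Ms4a4c averaged 0.0434 ± 0.0466 in trained and 0.0118 ± 0.0278 in untrained samples (SD, n = 3 and 2). The differences were -0.180 ± 0.122 and 0.0316 ± 0.0831 (SE, adjusted p = 0.999 for both in limma). The Ms4a4b value was -0.403 without untrained sample 1 and turned to 0.0420 without untrained sample 2, and the Ms4a4c value ran from 0.0119 to 0.0583 with 1 sample left out. Limma called 0 of 2923 genes (0%), with 71 at an unadjusted p under 0.05 (2.43%). The training difference in CD8-gated cells minus that in CD4-gated cells was 0.238 ± 0.129 for Ms4a4b and -0.314 ± 0.147 for Ms4a4c (SE, adjusted p = 0.758 for both in limma), with 0 of 2923 genes called (0%) and 173 at an unadjusted p under 0.05 (5.92%). The Ms4a4c value was -0.549 without untrained sample 1 and -0.0783 without untrained sample 2, and the Ms4a4b value was 0.0116 with the gate cut at 0.25.

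**Figure D5:**
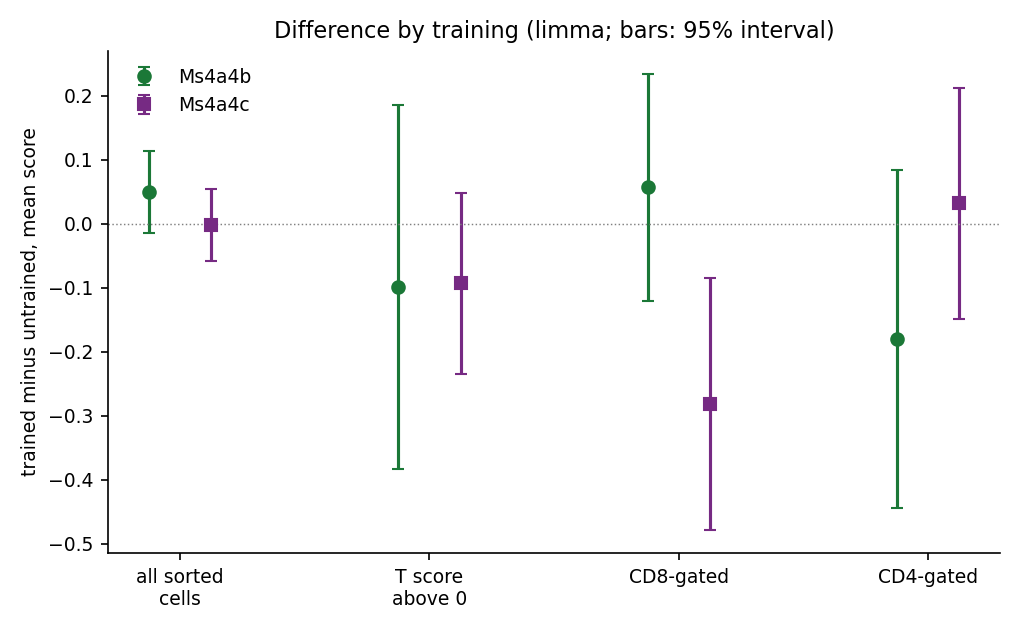
Trained minus untrained difference of the mean score (y axis, no unit) of Ms4a4b and Ms4a4c in 4 sets of cells, with unadjusted 95% intervals from limma (3 trained and 2 untrained samples). All intervals cross 0 except that of Ms4a4c in CD8-gated cells (-0.479 to -0.0846), whose adjusted p is 0.509.

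In CD8-gated minus CD4-gated cells 11 of 59 interferon-stimulated genes (18.6%) had a difference above 0, with 0 called, where 38.5% of all genes lay above 0. Their median was -0.109, where the median over all genes was -0.0270. The pair, at 0.140 and 0.141 without a call, was not tested against that list. The cytotoxic effector list had 10 of 10 above 0, at a median of 0.308, with 3 called. For training in cells above 0 for the T cell marker score, 15 of 59 interferon-stimulated genes (25.4%) lay above 0, against 39.5% of all genes. Their median was -0.0341, against a median of -0.0122 over all genes. None of the 4 measured MS4A genes or the 59 interferon-stimulated genes was called for training in the 4 sets of cells, nor were the 7 T cell markers in the 3 sets that were not chosen by them.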

How the data were processed

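Per the labels' protocols, mononuclear cells enriched on Percoll from the ipsilateral hemisphere were stained for CD45 and CD3, sorted as single cells into plates and sequenced by SORT-seq. Per the submitters' processing notes Cell Ranger was used, with no version given. How reads were aligned and counted, on which build, and how scores were made is not given in the sources used here. The table deposited by the authors holds a score per gene and cell and no counts, so a count test named in the plan as the choice for counts was not run and depth is unknown. A second table of 384 columns that repeats part of the first was not used.

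Samples were grouped by the treatment label and cells by the sample number in their names. Scores were averaged per gene, sample and class of cells and fitted with limma 3.58.1 (R 4.3.3) in 6 comparisons, two-sided, with p-values adjusted by Benjamini-Hochberg across every gene fitted and called under 0.05. Training was the only term, except that gates were compared with sample as a block. Genes that define a class were left out of its fit. The fit was tested on simulated data. Correlations were computed within samples and averaged over 5 samples. The genes, the lists and the comparisons were chosen with earlier results of these data known. Beside both genes and the other MS4A genes, those named are the 10 with the highest and 5 with the lowest mean r, the 5 closest interferon genes, the T cell markers and up to 3 called genes of a list; others named were chosen after their values were seen. Some genes that this rule takes are not reported here. Promoters came from RefSeq and transcripts from GENCODE. Doublets were not called, since no counts are given. Alternatives tried were a cut of 0.25, scores divided by their SD, medians, weights by cells, cells without myeloid scores above 1, gated cells with T cell markers only, rank correlation, regression on the mean score and leaving out each sample. The gate fit without the sample block, and the interferon difference without untrained sample 2, were chosen after seeing the data. Intervals are 95% intervals from limma.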

Additional observations from a re-analysis of the deposited data

Results flagged for a closer look

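Of 28 sets of 5 sample values on the pair, 3 had a sample far from the others, where chance flags about 1 set in 20. The Ms4a4b difference between cells above and at or below the median interferon score, among those above 0 for the T cell marker score, was 1.06 in untrained sample 2, against 0.302 to 0.390 in the others. The r of Ms4a4b with Ms4a6c was -0.198 in untrained sample 2, against -0.363 to -0.318 in the others. The r of Ms4a4b with the interferon-stimulated list was 0.635 in untrained sample 1, against 0.585 to 0.598 in the others.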

How the results depend on the processing

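Of 128 alternative tests of the pair 1 passed the threshold, and the lowest adjusted p of the others was 0.109. No paired analysis was possible for training because replicate numbers were given in accession order and pair nothing. Without the replicate block the CD8-gated minus CD4-gated differences were again 0.140 for Ms4a4b and 0.141 for Ms4a4c, and 30 genes were called in place of 5. Signs turned in the following settings, and the cause was not tested. Without cells above 1 for the myeloid markers the training difference of Ms4a4b in all cells was -0.0197. With medians over cells it was 0.0614 for Ms4a4c in all cells, 0.0351 for Ms4a4b and 0.0511 for Ms4a4c in cells above 0 for the T cell marker score, and the gate difference of Ms4a4c was -0.00292. With weights by cells it was 0.00716 for Ms4a4c in all cells. In CD8-gated cells Ms4a4b had -0.112 with a cut of 0.25 and -0.107 with T cell markers required, and in CD4-gated cells with T cell markers required Ms4a4c had -0.0657. Leaving out each sample in turn gave -0.0328 to 0.0278 for Ms4a4c in all cells, -0.350 to 0.152 for Ms4a4b in cells above 0 for the T cell marker score, -0.106 to 0.221 in CD8-gated and -0.403 to 0.0420 in CD4-gated cells. Numbers of genes called then ran from 0 to 3 in all cells, 0 to 140 above 0 for the T cell marker score, 0 to 7 between gates and 0 to 10 for the difference of the training effect between gates. With medians 12 genes were called for training in CD8-gated cells and 1 in CD4-gated cells, against 0 in the reported fits. Between gates 53 genes were called with scores divided by their SD, 11 with T cell markers required, 0 with medians and 0 without cells above 1 for the myeloid markers.

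After regression on the mean score of the cell the mean r with the T cell marker score was 0.233 for Ms4a4b and 0.0796 for Ms4a4c, that with the interferon score 0.371 and 0.219, and that between the pair 0.272. In cells above 0 for the T cell marker score the interferon r was 0.493 for Ms4a4b and 0.239 for Ms4a4c, and the r between the pair 0.275. The rank correlation of Ms4a4b with the interferon score was 0.577. Depth is unknown, so no limit from it can be given.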
